A study of Mus musculus with 8 samples.

Results

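Transcripts of 9 core apoptosis genes were followed in oocytes of newborn mice with and without Rbpms2: the pro-survival genes Bcl2, Bcl2l1, Bcl2l10 and Mcl1, the pore-forming effectors Bax and Bak1, the BH3-only gene Bcl2l11, and the initiator caspases Casp2 and Casp9. They were chosen by name as core regulators of oocyte death and matched by Ensembl identifier, and all 9 were found among the 21959 genes measured. The study holds 8 RNA sequencing libraries from ovaries at postnatal day 1, 4 from Rbpms2 knockout (KO) mice and 4 from wild-type (WT) mice. After collagenase and trypsin digestion of the ovaries, 5 to 10 cells picked by mouth pipette as putative primordial oocytes went into each tube and their mRNA was amplified for 18 cycles. The labels give neither the deleted part of Rbpms2, the strain nor the animals behind each tube, and the spread behind each p-value is therefore that among tubes, part of which may be technical.

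Apoptosis through mitochondria is governed by the BCL2 family. Pro-survival members such as BCL2, BCL-XL and MCL1 hold BAX and BAK1 in check, BH3-only proteins such as BIM antagonise the pro-survival members, and active BAX or BAK1 makes pores that release cytochrome c, after which caspase-9 is activated on the apoptosome. In mouse ovaries many oocytes are lost around birth, when germ cell cysts break down and primordial follicles form, and mice without Bax or Casp2 are known to keep more oocytes than normal mice. Bcl2l10, known in the mouse also as Diva or Boo, is transcribed mainly in the ovary and encodes a divergent family member to which both survival and death roles have been ascribed.

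Bcl2l10, the member that differed most between the genotypes, lies on chromosome 9 from 75347758 to 75351632 (GRCm38, plus strand) and has 2 exons, with a coding sequence of 573 bases in GENCODE M21. Its coding sequence is shown over the 60 bases around the splice junction because this gene had reads in every WT library and in 0 KO libraries, with the 30 bases of the second exon (from 75351011) in capitals:
Bcl2l10 exon junction: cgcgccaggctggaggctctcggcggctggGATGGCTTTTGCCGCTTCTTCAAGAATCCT
Casp2, the other member that differed, lies on chromosome 6 from 42264985 to 42282508 (plus strand). Its promoter, 250 bases before to 50 after the start as given by RefSeq for GRCm38.p6, is shown beside that of Bax on chromosome 7 (minus strand), whose promoter held the most E-boxes among those of the members. Capitals mark the E-box CANNTG, the element read by basic helix-loop-helix factors such as FIGLA.
Casp2 promoter chr6:42264735-42265034: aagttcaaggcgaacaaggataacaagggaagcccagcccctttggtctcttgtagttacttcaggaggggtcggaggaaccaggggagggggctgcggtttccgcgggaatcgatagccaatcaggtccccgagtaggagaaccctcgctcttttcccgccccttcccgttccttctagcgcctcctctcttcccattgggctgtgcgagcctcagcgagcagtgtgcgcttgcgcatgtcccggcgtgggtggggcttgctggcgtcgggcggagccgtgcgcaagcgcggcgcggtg
Bax promoter chr7:45466849-45467148: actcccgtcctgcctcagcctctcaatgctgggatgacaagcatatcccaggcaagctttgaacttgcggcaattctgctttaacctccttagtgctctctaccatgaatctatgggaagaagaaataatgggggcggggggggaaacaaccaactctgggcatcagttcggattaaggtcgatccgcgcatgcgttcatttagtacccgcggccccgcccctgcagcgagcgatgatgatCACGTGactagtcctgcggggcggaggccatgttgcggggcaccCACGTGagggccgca
The Casp2 window held 0 E-boxes and the Bax window 2, both of them CACGTG. Of the 11 promoters listed for 8 of the members, 7 held an E-box, as did 72.3% of all 32851 promoters of that length. The element TAATTG of the homeobox factor NOBOX, searched on both strands, was in 0 of the 11 and in 8.0% of all promoters. The E-box reads alike on both strands, and a match is a description of the letters. No promoter of Bcl2l10 was listed. The other members lie, in GRCm38, on chromosome 1 from 106538178 to 106714274 (Bcl2, minus strand), chromosome 3 from 95658788 to 95663176 (Mcl1, plus) and chromosome 7 from 45461697 to 45466898 (Bax, minus). Chromosome 2 holds Bcl2l1 from 152780668 to 152831728 (minus) and Bcl2l11 from 128126038 to 128162547 (plus). Bak1 lies on chromosome 17 from 27019810 to 27029009 (minus) and Casp9 on chromosome 4 from 141793612 to 141815976 (plus).

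The libraries held 9554090 to 14526326 reads in the listed genes in KO and 8310774 to 11926922 in WT. Rbpms2 itself stood at 31.0 to 58.3 FPKM in KO libraries and 136 to 213 FPKM in WT libraries (FPKM, fragments per kilobase of gene length, scaled to library size, as deposited by the authors). Ddx4 and Dazl, which mark germ cells, were present in every library. Of 10 oocyte markers, 7 to 9 were detected in KO (summed level 648 to 1410 FPKM) and 9 or 10 in WT (3119 to 5345 FPKM), with Oosp1 at 0 in every KO library and in WT replicate 2, and Zp3 or Padi6 at 0 in KO replicates 1, 2 and 3. Of 10 granulosa cell markers, 8 to 10 were detected in KO (10.3 to 385 FPKM) and 5 to 10 in WT (1.73 to 58.0 FPKM). Of 9 immune cell markers, 8 or 9 were detected in KO (17.1 to 367 FPKM) and 1 to 7 in WT (0.126 to 20.6 FPKM). All 9 stromal markers were detected in every library, with sums of 8.12 to 336 FPKM in KO and 3.56 to 77.5 FPKM in WT. Of 8 endothelial markers, 7 or 8 were detected in KO (3.12 to 299 FPKM) and 5 to 7 in WT (2.25 to 2.93 FPKM). The 7 erythroid markers summed to 99.6 to 3212 FPKM in KO and 11.9 to 5368 FPKM in WT, with Slc4a1 at 0 in every KO library and in WT replicate 4. In a tube of several cells, fewer cells of a type and less RNA per cell cannot be told apart.

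In KO oocytes 2 of the 9 members fell, Bcl2l10 and Casp2, and 0 rose. Bcl2l10 went undetected, and Casp2 stood at 36.1% of its WT level. Of the other 7, Bcl2l1, Mcl1, Bax, Bcl2l11 and Casp9 did not pass the test, and Bcl2 and Bak1 were too low to be tested. The test was limma across 11235 genes with an FPKM of at least 1 in at least 4 libraries, on log2(FPKM + 1), with a Benjamini-Hochberg adjusted p under 0.05 as the threshold. By that rule 43.4% of all tested genes were called, 17.7% higher and 25.6% lower in KO, so 2 calls among 7 tested members is no excess over the background. The median log2 fold change of the 7 tested members was -0.59 and that of all tested genes -0.12. Median-of-ratios scaling moved these medians to -0.45 and -0.00021, and GC correction to 0.08 and -0.13, turning the sign of the members' median. Bcl2l10 passed the filter on low values through the WT libraries alone, so that it could not enter the test without differing, and its call there and the members' count and median carry that limit. With no filter beyond a value above 0 in any library, limma across 18645 genes called 25.1% of them, 14.9% as lower, and again Bcl2l10 and Casp2 among the 9 members. Bcl2l10 entered that fit, too, through the WT libraries alone.

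**Figure D1:**
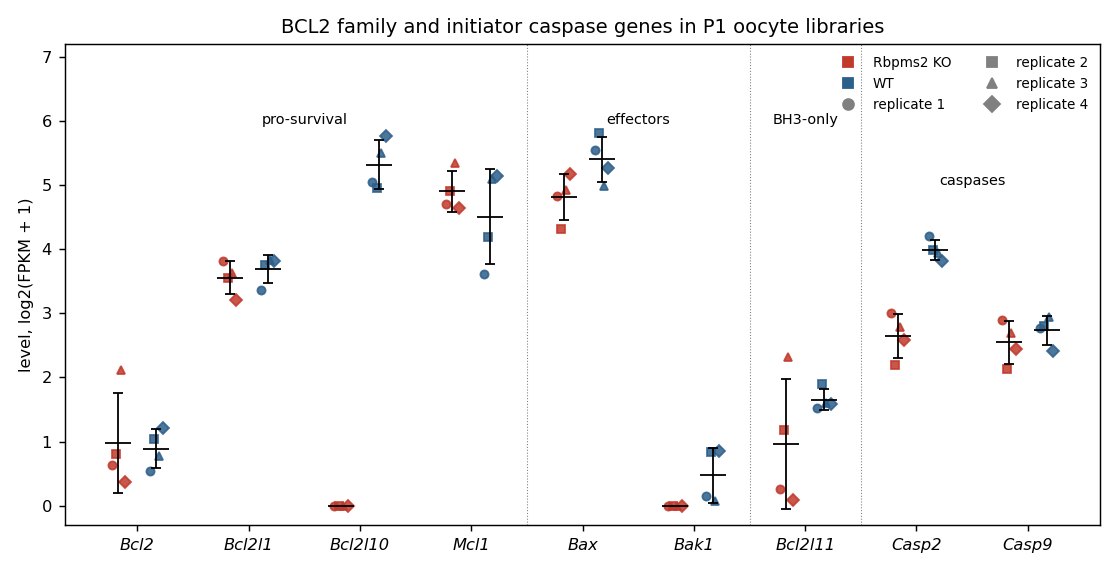
Levels of the 9 genes as log2(FPKM + 1) in each of 4 Rbpms2 KO (red, left) and 4 WT (blue, right) libraries, with marker shapes for replicates and bars for the mean ± SD. Bcl2l10 lies at 0 in all KO libraries and between 29.9 and 53.5 FPKM in WT, Casp2 is separated between the genotypes, and Bcl2 and Bcl2l11 are spread widely in KO with replicate 3 on top.

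Among the pro-survival genes, Bcl2l10 had 0, 0, 0 and 0 FPKM in KO replicates 1 to 4 and 32.2, 29.9, 44.4 and 53.5 FPKM in WT replicates 1 to 4. That is 0 reads over the 4 KO libraries against 1832 reads over the 4 WT libraries. Every WT library was high and every KO library empty. Its level averaged 0 FPKM in KO and 40.02 ± 11.04 FPKM in WT (SD, n = 4), at least 776-fold lower in KO when 3 reads across all KO libraries are taken as the floor (0.0515 FPKM). On the log2(FPKM + 1) scale the difference was -5.32 ± 0.26 (SE). In the fit with no filter, which kept every gene above 0 in any library, the limma adjusted p was 8.91e-06. Bcl2l10 entered that fit through the WT libraries alone, so this p-value carries the limit given above. The exact two-sided permutation p was 0.0286, the smallest that 4 against 4 libraries can give. The size of the log2 difference is set by the pseudocount: it was -8.61 with 0.1 and -3.14 with 5. In WT oocytes the FPKM ranges of Bcl2l10 and Bax, which are per length, overlapped.

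Mcl1 encodes a short-lived survival protein. It had 25.2, 28.8, 39.7 and 24.0 FPKM in KO replicates 1 to 4 and 11.3, 17.2, 33.2 and 34.1 FPKM in WT replicates 1 to 4. WT was split between a low pair (replicates 1 and 2) and a high pair (replicates 3 and 4), the KO libraries lay between those pairs except for replicate 3 above both, and so the genotypes overlapped. The means were 29.4 ± 7.17 FPKM in KO and 24.0 ± 11.5 FPKM in WT (SD, n = 4 each), with a log2 fold change of 0.39, a standard error of 0.34 and a limma adjusted p of 0.374.

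Bcl2l1 encodes BCL-XL and, from another splice form, a shorter death-promoting protein, which gene-level values do not separate. Its levels were 13.1, 10.8, 11.4 and 8.28 FPKM in KO replicates 1 to 4 and 9.29, 12.5, 13.2 and 13.0 FPKM in WT replicates 1 to 4. The ranges overlapped over most of their length. The means were 10.9 ± 2.01 FPKM in KO and 12.0 ± 1.83 FPKM in WT (SD, n = 4 each), with a log2 fold change of -0.13, a standard error of 0.23 and a limma adjusted p of 0.657. The sign of this small difference turned with median-of-ratios scaling (0.0046), quantile scaling (0.01) and GC correction (0.30).

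Bcl2, the founding member of the family, was scarce, with 0.551, 0.743, 3.33 and 0.285 FPKM in KO replicates 1 to 4 and 0.448, 1.06, 0.712 and 1.33 FPKM in WT replicates 1 to 4. KO replicate 3 was the only library above 1.33 FPKM, and the others overlapped. That library also had the highest summed levels of granulosa (385 FPKM), stromal (336 FPKM) and immune cell markers (367 FPKM) of the 8, and the part of other cells in its Bcl2 level was not tested. Bcl2 reached 1 FPKM in fewer than 4 libraries, and with no filter it was not called (log2 fold change 0.09, limma adjusted p = 0.886). Under looser filters its sign turned without WT replicate 1 (-0.0329, limma adjusted p = 0.960) and without WT replicate 3 and KO replicates 2 and 3 (-0.43, limma adjusted p = 0.353), and it was 0.0475 without WT replicate 3. An annotated gene on the opposite strand shares 558 of its 9157 exonic bases, and the strandedness of the counting is not given in the sources used here.

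Among the effectors, Bax had 27.5, 18.9, 29.4 and 35.1 FPKM in KO replicates 1 to 4 and 45.6, 55.1, 30.7 and 37.6 FPKM in WT replicates 1 to 4. The genotypes met at their edges, KO replicate 4 lying above WT replicate 3. The means were 27.7 ± 6.69 FPKM in KO and 42.3 ± 10.5 FPKM in WT (SD, n = 4 each), 1.53-fold lower in KO, with a log2 fold change of -0.59 and a standard error of 0.25. This did not pass (limma adjusted p = 0.0728, and 0.0571 in the two-sided exact permutation test). It did pass without WT replicate 3 (limma adjusted p = 0.0424) and with quantile scaling (limma adjusted p = 0.0474). The Bax transcript, at 63.5% GC, is richer in GC than 99.3% of the tested genes. With each library's trend against GC removed, the log2 fold change of Bax was 0.29 (limma adjusted p = 0.489).

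Bak1, the other effector, was nearly undetected. It had 0, 0, 0 and 0 FPKM in KO replicates 1 to 4 and 0.104, 0.795, 0.0492 and 0.799 FPKM in WT replicates 1 to 4, or 0 reads in KO against 39 in WT. WT replicates 2 and 4 held nearly all of those reads. WT replicate 1 had 3 and WT replicate 3 had 1, so the separation of the genotypes rests on that 1 read. With the same floor the level was at least 16.7-fold lower in KO, and the exact two-sided permutation p was 0.0286. The gene missed the filter, and limma without a filter did not call it (log2 fold change -0.48, adjusted p = 0.106). Of its 2407 exonic bases 614 are shared with Ggnbp1 on the opposite strand, itself at 0.314 ± 0.336 FPKM in KO and 0.672 ± 0.625 FPKM in WT (SD, n = 4 each). Nearly all of the summed effector level was therefore Bax in every library.

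Bcl2l11 encodes BIM, a BH3-only protein that antagonises all of the main pro-survival members. It had 0.202, 1.26, 3.98 and 0.0651 FPKM in KO replicates 1 to 4 and 1.88, 2.71, 2.04 and 2.01 FPKM in WT replicates 1 to 4. WT was tight, with all 4 libraries between 1.88 and 2.71 FPKM, whereas the KO libraries scattered: replicates 1, 2 and 4 lay below every WT library and replicate 3 above all of them. The means were 1.38 ± 1.82 FPKM in KO and 2.16 ± 0.374 FPKM in WT (SD, n = 4 each), with a log2 fold change of -0.69, a standard error of 0.46 and a limma adjusted p of 0.244. Without KO replicate 3, the library highest in granulosa, stromal and immune cell markers, the log2 fold change was -1.14 (limma adjusted p = 0.0216). Bcl2l11 missed the filter of 4 libraries without WT replicate 3 and KO replicates 2 and 3, the 3 highest in granulosa and stromal markers. With a filter of 1 FPKM in at least 2 libraries, chosen after seeing the data, the log2 fold change there was -1.49 (limma adjusted p = 0.00881). Bcl2l11 passed that looser filter through the WT libraries alone, so it could not enter without differing, and the p-value carries that limit. The part of other cells in KO replicate 3 was not tested.

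Of the initiator caspases, Casp2 fell. This caspase acts upstream of mitochondria and is activated on a platform built by PIDD1 and CRADD. It had 7.04, 3.60, 5.90 and 4.99 FPKM in KO replicates 1 to 4 and 17.4, 14.9, 14.3 and 13.1 FPKM in WT replicates 1 to 4. Every KO library lay well below every WT library. Its means were 5.38 ± 1.46 FPKM in KO and 14.9 ± 1.80 FPKM in WT (SD, n = 4 each), 2.77-fold lower in KO. On the log2 scale it was lower by a fold change of -1.34 ± 0.24 (SE), at a limma adjusted p of 0.00133 and a permutation p, exact and two-sided, of 0.0286. It stayed called under all 26 other settings tried, with log2 fold changes of -1.53 to -0.95, among them the GC correction (-1.47). KO and WT values were separate for 2 of the 7 tested members, Casp2 and Bcl2l10, and for Bak1 outside the test. They were separate for 39.9% of all tested genes.

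Casp9, the caspase of the apoptosome, had 6.45, 3.39, 5.49 and 4.47 FPKM in KO replicates 1 to 4 and 5.83, 5.97, 6.73 and 4.30 FPKM in WT replicates 1 to 4. The genotypes overlapped. The means were 4.95 ± 1.32 FPKM in KO and 5.71 ± 1.02 FPKM in WT (SD, n = 4 each), with a log2 fold change of -0.19, a standard error of 0.26 and a limma adjusted p of 0.590. Its sign turned with quantile scaling (0.04), GC correction (0.08) and without the 3 libraries highest in granulosa and stromal markers (0.01). Casp9 shares 94 of its 5197 exonic bases with genes on the opposite strand, of which Cela2a stood at 2.98 ± 2.84 FPKM in KO (SD, n = 4) and was listed at 0 in WT.

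**Figure D2:**
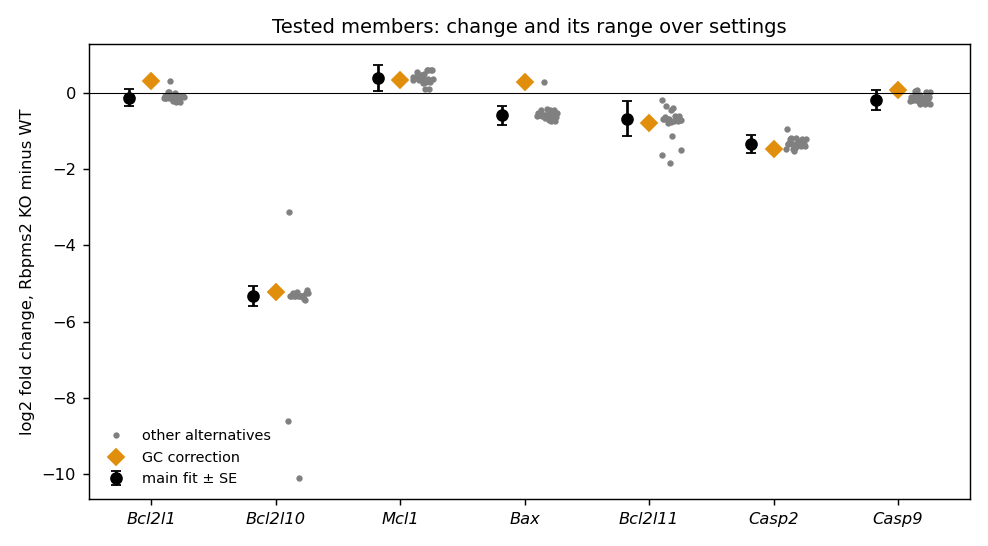
Log2 fold changes, Rbpms2 KO minus WT on log2(FPKM + 1) unless another pseudocount was the alternative, for the 7 tested genes: black, the fit over all 8 libraries ± SE; orange, after GC correction; grey, the other alternatives. Casp2 stays below 0 throughout, while Bax moves across 0 with the GC correction, to 0.29. Bcl2l10 lies below 0 in the 21 alternatives that tested it. It entered each of them through WT libraries alone, so its place there does not show stability.

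The order of levels differed between the genotypes at the top. In KO it was Mcl1, Bax, Bcl2l1, Casp2, Casp9, Bcl2l11, Bcl2, and then Bcl2l10 and Bak1 at 0. Of neighbours in that order, Bax and Bcl2l1, Bcl2l1 and Casp2, and Bcl2 and the genes at 0 had separate ranges, and the other pairs overlapped. In WT it was Bax, Bcl2l10, Mcl1, Casp2, Bcl2l1, Casp9, Bcl2l11, Bcl2 and Bak1, with separate ranges between Bcl2l1 and Casp9, Casp9 and Bcl2l11, and Bcl2l11 and Bcl2. Casp2 thus stood above Casp9 in every WT library, while in KO the ranges overlapped, Casp2 lying just above Casp9 within each library.

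Pro-survival transcripts were set against effector transcripts within each library as ratios of FPKM, which are given as a description with no test. The Bcl2l10 to Bax ratio was 0 in all 4 KO libraries and 0.705, 0.543, 1.45 and 1.42 in WT replicates 1 to 4. For Mcl1 to Bax the ratios were 0.917, 1.52, 1.35 and 0.684 in KO replicates 1 to 4 and 0.247, 0.312, 1.08 and 0.907 in WT replicates 1 to 4, with overlap. Bcl2l1 to Bax averaged 0.418 ± 0.142 in KO and 0.301 ± 0.105 in WT, and Bcl2 to Bax 0.0452 ± 0.0472 in KO and 0.0218 ± 0.0105 in WT (SD, n = 4 each). The summed level of the 4 pro-survival genes was 32.6 to 54.5 FPKM in KO and 53.2 to 102 FPKM in WT, meeting at KO replicate 3 and WT replicate 1. Bcl2l10, to which death roles have also been ascribed, made up 29.9 to 53.5 FPKM of that sum in WT and 0 in KO. Bcl2, Bcl2l1 and Mcl1 each overlapped between the genotypes. Divided by the summed effectors, the summed pro-survival level was 1.42, 2.13, 1.86 and 0.928 in KO replicates 1 to 4 and 1.16, 1.09, 2.97 and 2.66 in WT replicates 1 to 4. Those ratios overlapped, with KO inside a wider WT range at all but its lowest library.

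**Figure D3:**
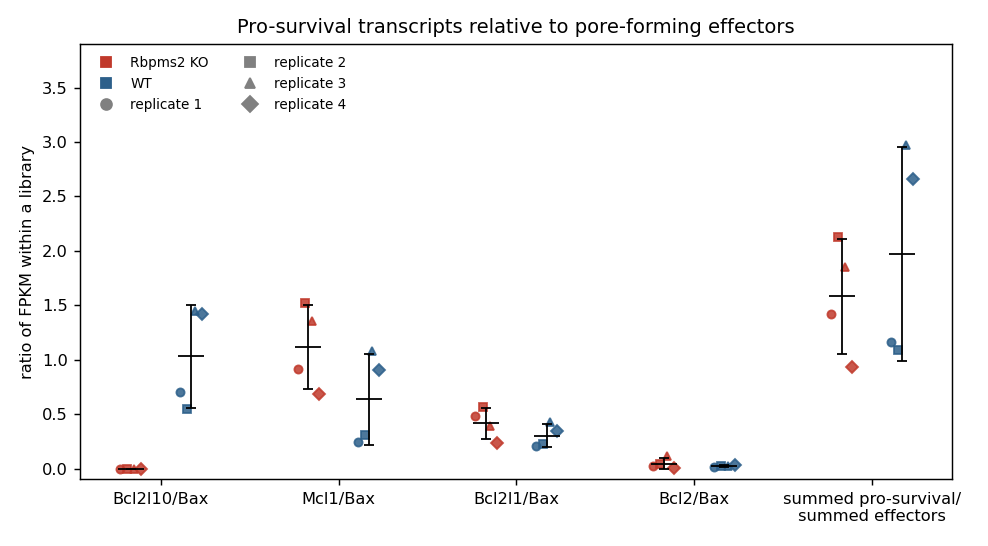
Ratios of FPKM within each library for pro-survival genes over Bax and for the summed pro-survival genes over Bax plus Bak1, in 4 Rbpms2 KO (red, left) and 4 WT (blue, right) libraries, bars showing mean ± SD. The Bcl2l10 to Bax ratio is 0 in every KO library and at least 0.543 in every WT library, and the other ratios overlap.

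Genes most alike in pattern were found by Pearson correlation of log2(FPKM + 1) over the 8 libraries, among 8187 tested genes with at least 5 FPKM in a genotype. These points share libraries and genotype, so the values are a description. Bcl2l10 was most like Zp1, a zona pellucida gene (r = 0.998), which stood at 0.108 ± 0.216 FPKM in KO and 226 ± 58.2 FPKM in WT (SD, n = 4 each), and Mtus2 (r = 0.998). Casp2 was most like Pip4p1 (r = 0.991) and Csnk1e (r = 0.984), Bax like Mmachc (0.963) and Pxt1 (0.951), and Mcl1 like Rab24 (0.953) and Zc3h18 (0.941). Bcl2l11 was most like Psme2 (0.977) and Wwtr1 (0.976), Bcl2l1 like Mgat1 (0.926) and Crebzf (0.908), and Casp9 like Socs6 (0.943) and Ppfibp1 (0.923).

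A wider list of 46 other apoptosis genes, grouped by role, held 30 tested genes, of which 3 rose and 5 fell, or 26.7%, against 43.4% of all genes. Their median log2 fold change was 0.25, against -0.12 for all tested genes, and after GC correction it was -0.17, against -0.13. The split was 4 higher and 4 lower after median-of-ratios scaling, 6 and 4 after quantile scaling and 6 and 4 after the GC correction. Over all tested genes it was 2310 and 2506, 2503 and 2511, and 1669 and 2653 in those settings, from 1991 and 2880 in the main fit. The 2 genes Bcl2a1a and Casp14 had 0 reads in all libraries.

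Of other BCL2 relatives, Bok, an effector that can act without BAX and BAK1, rose with a log2 fold change of 2.05 (limma adjusted p = 0.0376). It had 20.3, 8.37, 7.39 and 0.398 FPKM in KO replicates 1 to 4 and 1.37, 1.70, 0.258 and 0 FPKM in WT replicates 1 to 4. KO replicate 4 lay within the WT range, and KO replicate 1, the highest, was also the library with endothelial markers at 299 FPKM, a coincidence whose part in the result was not tested. The call ended without KO replicate 1, 2 or 3 or WT replicate 1, 3 or 4, and without the 3 libraries highest in granulosa and stromal markers, with adjusted p-values by limma of 0.0526 to 0.258. It also ended with a pseudocount of 0.1 (0.0585), with no filter (0.0951) and by limma-voom (0.147). Bcl2l12, a more distant relative, fell with a log2 fold change of -1.12 (limma adjusted p = 0.0288). It had 2.55, 0.487, 1.70 and 2.01 FPKM in KO replicates 1 to 4 and 6.61, 6.06, 2.58 and 3.95 FPKM in WT replicates 1 to 4. The highest KO library lay just under the lowest WT library. The call ended after GC correction (limma adjusted p = 0.245), quantile scaling (0.123), with no filter (0.0701), by limma-voom (0.0791), and without KO replicate 2 or WT replicate 1, 2 or 4 (0.056 to 0.0881). Of its 1976 exonic bases 660 are shared with genes on the opposite strand. Bcl2l13 did not pass (log2 fold change 0.49), and Bcl2l2, the Bcl2a1 genes, Bcl2l14 and Bcl2l15 were not tested. The Bcl2a1 genes are near-identical copies among which reads could be split.

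None of the 3 other tested BH3-only genes passed. Bid, which links death receptors to mitochondria, averaged 10.5 ± 4.27 FPKM in KO and 10.8 ± 5.96 FPKM in WT (SD, n = 4 each). Bad and Pmaip1, which encodes NOXA, had log2 fold changes of 0.49 and 0.36. Bbc3, which encodes PUMA, was under the filter, with 0.556 ± 0.389 FPKM in KO and 1.41 ± 1.24 FPKM in WT (SD, n = 4 each), as were Bik, Bmf and Hrk.

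Of the 6 genes of the apoptosome and mitochondrial release, 1 fell and 5 did not pass. Endog encodes endonuclease G of the mitochondrial intermembrane space. It had 0.643, 6.21, 2.05 and 1.38 FPKM in KO replicates 1 to 4 and 11.7, 11.9, 10.0 and 22.2 FPKM in WT replicates 1 to 4. The genotypes did not overlap. Its log2 fold change was -2.23 ± 0.44 (SE, limma adjusted p = 0.0021), and -1.32 after GC correction (limma adjusted p = 0.0227). Of its 1063 exonic bases 379 are shared with Spout1 on the opposite strand. Cycs, which encodes cytochrome c, averaged 44.2 ± 12.5 FPKM in KO and 34.1 ± 4.37 FPKM in WT (SD, n = 4 each, limma adjusted p = 0.260), and Apaf1, the scaffold of the apoptosome, 1.20 ± 0.770 FPKM in KO and 1.40 ± 0.223 FPKM in WT (SD, n = 4 each, limma adjusted p = 0.657).

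Casp6, which encodes a caspase that acts late in the cascade, did not pass (limma adjusted p = 0.332). It was highest in KO replicate 3, at 25.1 FPKM against 4.43, 3.57 and 1.01 FPKM in KO replicates 1, 2 and 4, and stood at 4.67 to 14.4 FPKM in WT. The marker sums of KO replicate 3 are those given beside Bcl2, and their part here was not tested. Casp8, the initiator of the death receptor arm, did not pass (log2 fold change 0.66), and neither did Cradd (0.38) and Pidd1 (-0.70) of the caspase-2 platform.

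**Figure D4:**
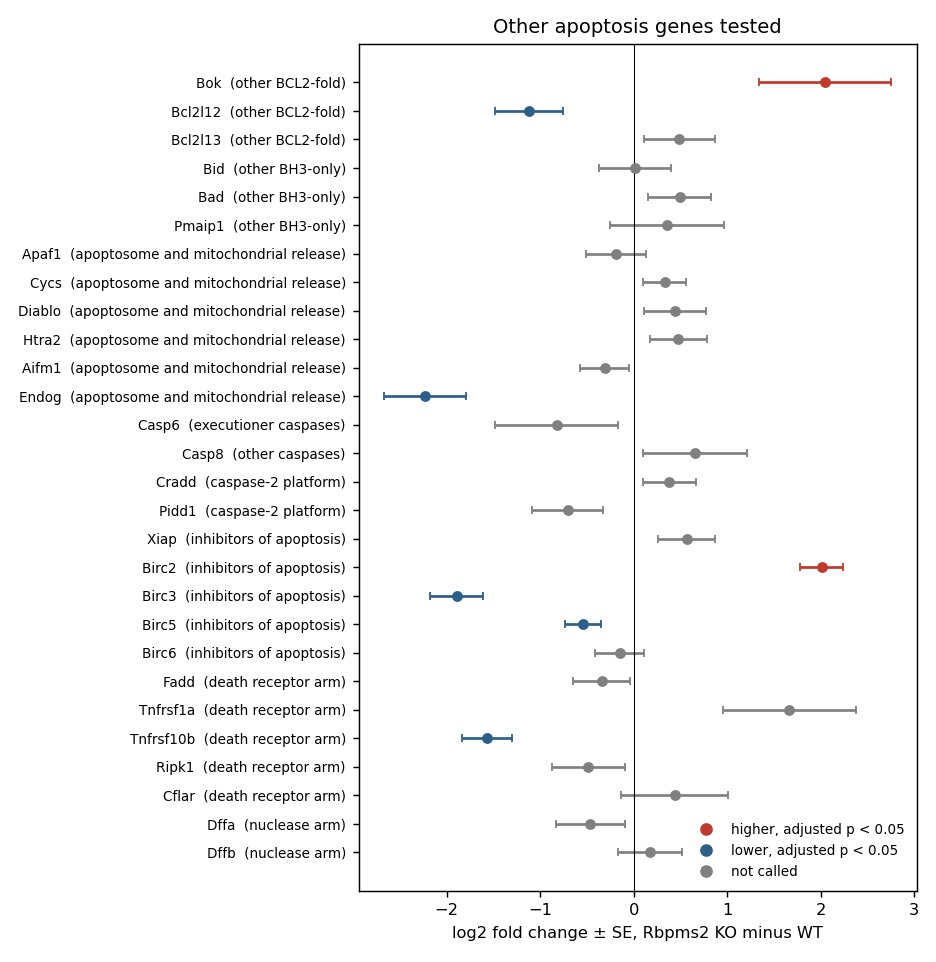
Log2 fold change ± SE, Rbpms2 KO minus WT on log2(FPKM + 1), of 28 tested genes of the wider apoptosis list by role; red and blue mark genes called higher and lower at a limma adjusted p under 0.05. The 2 higher genes drawn are Bok and Birc2, and the 5 lower ones Bcl2l12, Endog, Birc3, Birc5 and Tnfrsf10b.

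Among 5 inhibitors of apoptosis, 1 rose and 2 fell. Birc2 and Birc3, which encode the ubiquitin ligases cIAP1 and cIAP2, are neighbours on the minus strand of chromosome 9, from 7818227 to 7837064 and from 7848699 to 7873186 (GRCm38), and they went opposite ways. Birc2 had 41.9, 30.1, 41.2 and 45.8 FPKM in KO replicates 1 to 4 and 8.87, 6.99, 12.4 and 8.42 FPKM in WT replicates 1 to 4, a log2 fold change of 2.01 ± 0.23 (SE, limma adjusted p = 7.63e-05). Birc3 had 1.49, 1.11, 0.587 and 1.17 FPKM in KO replicates 1 to 4 and 5.35, 6.95, 5.53 and 9.43 FPKM in WT replicates 1 to 4, a log2 fold change of -1.89 ± 0.28 (SE, limma adjusted p = 0.000415). For both genes the genotypes were far apart and the replicates of a genotype close together. Both stayed called under all 26 other settings, with log2 fold changes of 1.53 to 2.31 for Birc2 and -2.66 to -0.95 for Birc3.

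Birc5 encodes survivin, an inhibitor of apoptosis that also acts in cell division. It fell slightly, with 80.5 ± 6.15 FPKM in KO and 120 ± 27.8 FPKM in WT (SD, n = 4 each, limma adjusted p = 0.0423), and the genotypes overlapped. Its call ended after median-of-ratios scaling (limma adjusted p = 0.182), with no filter (0.0564) and without any 1 library other than WT replicate 3 (limma adjusted p = 0.0519 to 0.120). Xiap, which blocks caspases directly, and the giant ligase gene Birc6 did not pass, with log2 fold changes of 0.57 and -0.15.

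In the death receptor arm 1 of 5 tested genes fell. Tnfrsf10b, the mouse TRAIL receptor, had 0.659, 0.706, 1.06 and 0.384 FPKM in KO replicates 1 to 4 and 4.01, 4.63, 3.39 and 4.01 FPKM in WT replicates 1 to 4. The genotypes did not overlap, and the log2 fold change was -1.57 ± 0.27 (SE, limma adjusted p = 0.00089). Among KO libraries only replicate 3 reached 1 FPKM, so WT libraries carried Tnfrsf10b over the filter of 4 libraries. It missed that filter without the 3 libraries highest in granulosa and stromal markers. Tnfrsf1a, a receptor for tumour necrosis factor, averaged 10.9 ± 7.52 FPKM in KO and 2.22 ± 1.71 FPKM in WT (SD, n = 4 each) and did not pass (limma adjusted p = 0.0803). Its 3 highest libraries were KO replicates 1, 2 and 3, and KO replicate 4 stood at 0.888 FPKM. The endothelial marker sum was 299 FPKM in KO replicate 1 but 3.12 in KO replicate 3, below KO replicate 4 (5.82 FPKM). The stromal sum was 294 and 336 FPKM in KO replicates 2 and 3 but 8.12 in KO replicate 1, below KO replicate 4 (11.4 FPKM). The immune sum, too, was lower in KO replicate 1 (17.1 FPKM) than in KO replicate 4 (29.4 FPKM). The granulosa sum was 15.0, 90.1 and 385 FPKM in KO replicates 1 to 3, each above KO replicate 4 (10.3 FPKM). The erythroid sum was 102, 2819 and 3212 FPKM there, also above KO replicate 4 (99.6 FPKM). The part of other cells in the Tnfrsf1a level was not tested. Fadd, Ripk1 and Cflar did not pass either, and neither did Dffa and Dffb, which encode the inhibitor of the nuclease CAD (Dffa) and CAD itself (Dffb).

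**Figure D5:**
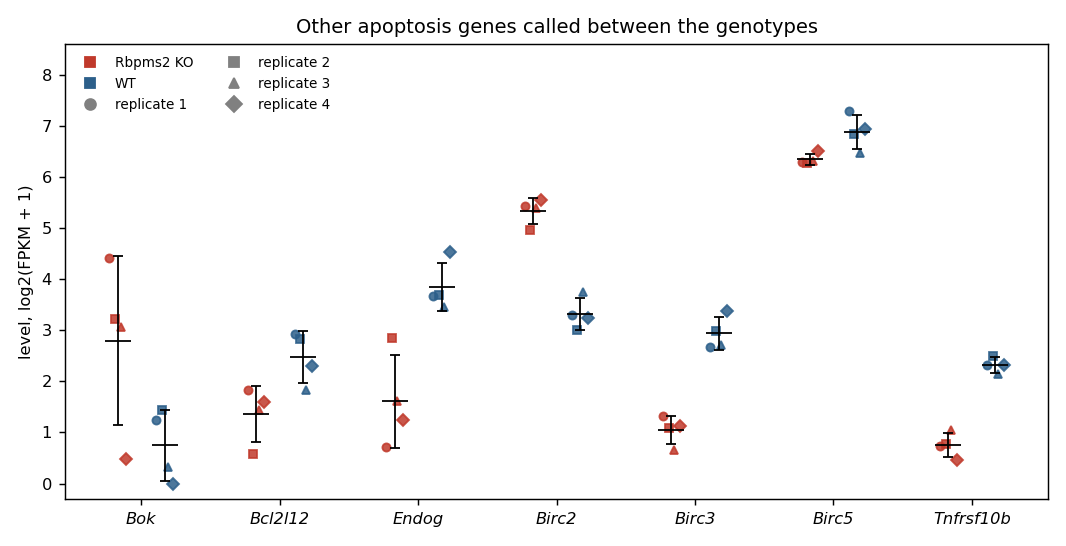
Levels of 7 called genes of the wider list as log2(FPKM + 1) in each of 4 Rbpms2 KO (red, left) and 4 WT (blue, right) libraries, with bars for the mean ± SD. Birc2 is higher and Birc3, Endog and Tnfrsf10b lower in every KO library than in any WT library, whereas Bok and Birc5 overlap between the genotypes.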

How the data were processed

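The authors deposited FPKM values per gene and library for 21959 genes, used here as they are. The notes of the submitters on processing list cutadapt, HISAT2, HTSeq and GRCm38 (mm10), while versions, annotation and strandedness were not stated there. Symbols matched 21851 genes and GENCODE M21 exon lengths 21902. FPKM times exon length is a multiple of what 1 read is worth, and 97.4% to 97.5% of the values in a library came out whole, to a tolerance of 0.02 reads. Such reads served for depths, floors and a limma-voom alternative. Floors cover counting error only, since amplified reads without molecular identifiers are not independent molecules.

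Genes reaching 1 FPKM in 4 or more libraries entered limma 3.58.1 (R 4.3.3) on log2(FPKM + 1), eBayes with trend, genotype as the only term, Benjamini-Hochberg over all tested genes. The pseudocount makes fold changes of weakly expressed genes too small. Exact two-sided permutation tests ran over 70 splits. GC correction removed a loess trend (span 0.5) against transcript GC content in each library. On simulated KO and WT libraries with 11235 genes, 23 of 100 genes changed 2-fold and 77 of 100 changed 4-fold were called, with 3 calls among 11035 unchanged genes. The changed share there was far below the 43.4% called in the data, and the adjustment depends on that share. These rates therefore need not hold for the reported test.

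The members and lists were chosen with earlier results of these data known, so counts over them are descriptions. The text names the members, called genes of the wider list, and 2 genes alike in pattern per tested member. Library values for the called gene with the smallest adjusted p of each role were planned. Those of Bok, Birc3 and Casp6, and other genes that were not called, were chosen after values were seen. Some genes counted in the lists are not reported here by name or drawn. Alternatives were pseudocounts, filters, scalings, a replicate block, GC correction, robust eBayes, limma-voom and libraries left out.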

Additional observations from a re-analysis of the deposited data

Results flagged for a closer look

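For 2 of 16 sets of 4 libraries of a genotype, over the 9 members, 1 library stood apart from the other three by Dixon's test, which chance does in about 1 of 20 sets. Bcl2 in KO replicate 3, at 3.33 FPKM, lay far above the other KO libraries (0.285 to 0.743 FPKM). Bcl2l1 in WT replicate 1, at 9.29 FPKM, lay below the other WT libraries (12.5 to 13.2 FPKM).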

How the results depend on the processing

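Casp2 stayed lower and called in 26 alternatives. Bcl2l10 did in the 21 that tested it. It entered each of them through WT libraries alone, also with no filter, where a value above 0 was required. Those calls therefore do not show stability. Over libraries left out singly, 1 to 3 of 6 or 7 tested members were called, and 3478 to 4802 of 10507 to 10926 tested genes in all. The lowest count, without WT replicate 1, 2 or 4, and the 1 call without the 3 libraries highest in granulosa and stromal markers arose because Bcl2l10 then misses the filter of 4 libraries. With filters in 3 or 2 libraries, chosen after seeing the data, the counts were 2 to 3 of 7 or 8 tested members. Over all genes they were then 3949 to 5275 of 11648 to 11857. The wider list gave 4 calls of 44 tested genes with no filter, against 4672 of 18645 over all genes. At 5 FPKM it gave 5 of 12, against 3773 of 7427, and over libraries left out singly 4 to 9 of 27 to 30. With the filter in 3 libraries the wider list gave 5 of 33 without WT replicate 1, against 4480 of 11857. Without WT replicate 4 it gave 4 of 32, against 3949 of 11768. Signs turned for Bcl2l1 (0.0046 by median-of-ratios scaling, 0.0111 by quantile scaling, 0.30 by GC correction with or without the block), Bax (0.29 by GC correction with or without the block) and Casp9 (0.043 by quantile scaling, 0.0774 by GC correction with or without the block, 0.0142 without the 3 libraries under either filter); the cause was not tested. The mean log2 difference of Bcl2 to Bax was 0.56, and -0.0915 to 1.18 over libraries left out, lowest without KO replicate 3. That of the summed ratio was -0.24, and -0.47 to 0.0124, highest without WT replicate 3. With the replicate number as a block, 2 members, 9 wider genes and 5034 genes in all were called. Same-numbered libraries deviated together by correlations of 0.185, 0.016, 0.361 and -0.053. KO replicates 1 and 3 correlated best with their own number, and KO replicates 2 and 4 with another number. These values do not decide whether same-numbered libraries were handled together, which was not tested. At these depths 3 reads over the KO libraries correspond to 0.0515 FPKM for Bcl2l10.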
